A study of Mus musculus with 4 samples.

Results

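The neurotrophic factor receptor genes Ntrk2, Ntrk3, Ngfr, Ret, Gfra1, Gfra2 and Gfra3 and the ligand gene Bdnf were followed in dorsal root ganglia, where the cell bodies of sensory neurons lie along the spinal cord. These 8 genes of the 48431 in the expression table were taken by gene symbol, without regard to their values. The 4 RNA libraries formed 1 group, from male wild-type mice carrying the strain label SW, which had received intraperitoneal methylglyoxal (MGO) over 6 days at a dose of 2 mg/kg. MGO is a reactive by-product of glycolysis, and the series title names metabolic neuropathy as its subject. Vehicle-treated ganglia were not analysed here, so the values describe ganglia of MGO-treated mice and measure no response to MGO. Neither the animals' age nor whether each library is a separate animal is stated in the labels, so the p-values measure a spread between libraries that may be technical.

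Neurotrophins are small secreted dimers that keep sensory neurons alive in development and tune their excitability in the adult. They bind Trk receptor tyrosine kinases, and all of them also bind the p75 receptor, a member of the tumour necrosis factor receptor family without a kinase. The GDNF family works through a pair of proteins: a GFRα co-receptor, held to the membrane by a lipid anchor, binds the ligand, and the tyrosine kinase Ret then carries the signal. Since sensory neuron classes differ in which of these receptors they carry, the genes serve as class markers in this tissue.

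Values are CPM, reads scaled so that every library sums to 1000000, and the smallest steps between values imply 5576820 to 10138773 reads per library. The libraries fell into pairs, since ribosomal RNA entries took 8.27% and 10.8% of CPM in replicates 3 and 4 and close to none in replicates 1 and 2. Pan-neuronal markers were high in all libraries (all 10 at 1 CPM or more, summed level 10733 and 11124 CPM in replicates 1 and 2, 12106 and 10400 CPM in replicates 3 and 4), led by Uchl1. Markers of myelinating Schwann cells (7 of 7), of satellite glia (7 of 7) and of fibroblasts (6 of 6, led by Col1a2) were at 1 CPM or more in every library. Of 5 central glia markers only Aqp4 and Aldh1l1 reached 1 CPM in every library. Muscle markers (5 of 5, led by Acta1) and blood markers (3 of 3, led by Hbb-bt) were present too. So were those of non-myelinating Schwann cells (5 of 5) and of endothelium and mural cells (6 of 6), and 3 of 6 of macrophages.

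The receptors come in related pairs, so their sequences were compared to see how far reads of one could be taken for another. The most alike 120 bases of the coding sequences of Ntrk2 and Ntrk3 lie in the part that encodes the kinase, and 104 of the 120 bases (86.7%) were identical. Capitals mark the differing bases, and both stretches are given 5′ to 3′ on the sense strand from GENCODE M21 transcripts (GRCm38), bases 1762 to 1881 of Ntrk2-201 and 1765 to 1884 of Ntrk3-201.
Ntrk2: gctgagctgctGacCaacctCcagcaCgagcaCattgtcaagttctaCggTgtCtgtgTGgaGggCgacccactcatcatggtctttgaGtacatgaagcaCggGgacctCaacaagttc
Ntrk3: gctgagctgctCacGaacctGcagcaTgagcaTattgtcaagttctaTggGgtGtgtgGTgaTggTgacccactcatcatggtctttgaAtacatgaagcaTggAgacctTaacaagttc

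The longest run of bases shared exactly by any transcripts of Ntrk2 and Ntrk3 was 23 bases, and by those of Gfra1 and Gfra2 28 bases. Between any 2 of the 8 genes the longest was 34 bases, in Ngfr and Gfra2. At 50 bases, 12.7% of the Bdnf positions and 6.66% of the Gfra1 positions also occurred in other genes, in both cases an antisense gene that overlaps them (Gm45346 and Gm16277), and for the other 6 genes the share was 1.34% or less. The use of strand in counting is not given in the sources used here, so reads of these 2 genes and their antisense partners cannot be told apart. Gm16277, which overlaps the 3′ end of Gfra1, had 1.78, 1.11, 2.33 and 2.63 CPM.

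Ret, the kinase that all GFRα co-receptors share, was the most abundant of the 8 genes. Ret (ENSMUSG00000030110.13) lies on chromosome 6, from 118151745 to 118197718 (GRCm38, minus strand), and had 357, 380.4, 211 and 205 CPM in replicates 1 to 4, a mean of 288 ± 93.2 CPM (SD, n = 4). All libraries placed it first of the 8, replicates 1 and 2 were higher than replicates 3 and 4, and the pairs did not overlap. Taken as independent, its 1177 to 3619 reads per library leave little counting error. The 95% Poisson intervals ran from 345 to 369 CPM in replicate 1 and from 199 to 223 CPM in replicate 3. Ret stood above 96.2% of the 13029 protein-coding genes that averaged 1 CPM or more. Intervals cover counting error only. They take each read as an independent molecule, which is not assured without molecular tags, so they may be too narrow.

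Gfra2, the co-receptor of neurturin (ENSMUSG00000022103.9, chromosome 14, 70890120 to 70979838, plus strand), had 244, 250.2, 92.2 and 100.2 CPM (172 ± 87.1 CPM, SD, n = 4). It was second of the 8 in every library and lower in replicates 3 and 4, with no overlap between the pairs. Gfra1, the co-receptor of GDNF itself (ENSMUSG00000025089.15, chromosome 19, 58235604 to 58455909, minus strand), had 49.1, 47.7, 66.0 and 57.7 CPM (55.1 ± 8.49 CPM). It was the only GFRα gene here with replicates 3 and 4 above replicates 1 and 2. Gfra3, the co-receptor of artemin (ENSMUSG00000024366.7, chromosome 18, 34689898 to 34720387, minus strand), had the lowest values, 18.2, 18.3, 6.28 and 5.81 CPM (12.2 ± 7.05 CPM), from 35 to 185 reads. It came last in all 4 libraries and stood above 41.0% of the protein-coding genes.

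Summed, the 3 co-receptor genes had 311, 316, 164 and 164 CPM, against 357, 380.4, 211 and 205 CPM for Ret. The sum lay below Ret in 4 of 4 libraries, at 0.819 of its level (mean log2 ratio -0.29 ± 0.070, SD, n = 4). A two-sided exact sign-flip test gave p = 0.13, the lowest that 4 libraries can reach, and 0.13 after adjustment over the 2 sums tested. Divided by exonic length the ratio turned in 4 of 4 libraries, to a mean log2 ratio of 0.56 in favour of the co-receptors, and by the longest coding transcript it was 0.32, also in 4 of 4.

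Among the neurotrophin receptors, Ntrk2 and Ntrk3 were near each other and varied least of all members. Ntrk2, which encodes TrkB, the receptor of BDNF (ENSMUSG00000055254.14, chromosome 13, 58806569 to 59133970, plus strand), had 82.6, 78.1, 70.1 and 69.5 CPM (75.1 ± 6.35 CPM, SD, n = 4). Ntrk3, which encodes TrkC, the receptor of neurotrophin-3 (ENSMUSG00000059146.12, chromosome 7, 78175959 to 78738012, minus strand), had 69.4, 62.3, 69.6 and 65.6 CPM (66.7 ± 3.49 CPM). The SD was 8.46% of the mean for Ntrk2 and 5.22% for Ntrk3, against 15.4% to 58.1% for the other 6 genes. Only Ntrk3 had library pairs that overlapped.

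TrkB and TrkC transcripts end in several places. Of the coding transcripts of Ntrk2, 201 and 207 hold an open reading frame of 821 codons for the full kinase form and end at 59133970 and 59129965, while 202 and 204 hold one of 476 codons for a truncated form and end at 58937027 and 58933120, far upstream. The truncated form lacks the kinase and is known from glia as well as neurons. Coding transcripts 205, 208 and 209 of Ntrk2 hold frames of 492, 466 and 489 codons and end at 58878749, 58888479 and 58888479. The table holds 1 value per gene, so the CPM of Ntrk2 sums reads of all these transcripts. Their part in it was not tested. Ntrk3 likewise has a reading frame of 612 codons in Ntrk3-202, beside 825 in Ntrk3-201.

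Ngfr, which encodes the p75 receptor (ENSMUSG00000000120.6, chromosome 11, 95568818 to 95587735, minus strand), had 34.1, 33.8, 19.4 and 15.4 CPM (25.7 ± 9.71 CPM, SD, n = 4). It was seventh of the 8 genes in every library, and the library pairs did not overlap. The summed CPM of Ntrk2 and Ntrk3 was 152, 140.4, 139.7 and 135 in replicates 1 to 4, higher than Ngfr in 4 of 4 libraries (5.85-fold, mean log2 ratio 2.55 ± 0.53, SD, n = 4). The exact sign-flip test, two-sided, again gave its lowest p of 0.13. Per kb of exonic length the libraries were split, with log2 ratios of -0.59 and -0.68 in replicates 1 and 2 and 0.080 and 0.37 in replicates 3 and 4 (mean -0.20, exact sign-flip p = 0.5). Per kb of the longest coding transcript the Trk sum was higher in 4 of 4 libraries (mean log2 ratio 0.77).

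Bdnf was the one ligand gene with more than a few CPM. It encodes brain-derived neurotrophic factor, which binds TrkB and p75, and the gene (ENSMUSG00000048482.14) lies on chromosome 2 from 109674700 to 109727007 (plus strand) with 11 annotated coding transcripts. Its values were 136, 119, 70.8 and 57.9 CPM (96.0 ± 37.5 CPM, SD, n = 4), from 395 to 1379 reads, above 85.9% of the protein-coding genes. Replicates 1 and 2 were the high ones and the pairs did not overlap. Bdnf had rank 3 of the 8 genes in replicates 1 to 3 and rank 5 in replicate 4.

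The other ligand genes were near 0. Ntf3, the gene of neurotrophin-3, and Ntf5, the gene of neurotrophin-4, had 2 reads each over all 4 libraries. In the GDNF family, Gdnf had 4 reads, the artemin gene Artn 7 and the neurturin gene Nrtn 18 (0.592, 1.11, 0.179 and 0.138 CPM), and the persephin gene Pspn was listed at 0 throughout. A count of 0 allows up to 3 reads, which equals 0.296, 0.334, 0.538 and 0.415 CPM in replicates 1 to 4. Gdf15, a distant relative that signals through its own co-receptor and Ret, had 33 reads and 0.592, 0.780, 1.61 and 1.52 CPM. Its co-receptor gene Gfral had 4 reads. Gfra4, the co-receptor gene of persephin, had 1.58, 2.79, 0.359 and 0.415 CPM. Thus 0 of 5 GDNF-family ligand genes and 1 of 3 neurotrophin genes reached 1 CPM in all libraries, as did 3 of 3 neurotrophin receptors and 4 of 6 GDNF-family receptors, while 26.5% of all genes in the table did so.

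**Figure D1:**
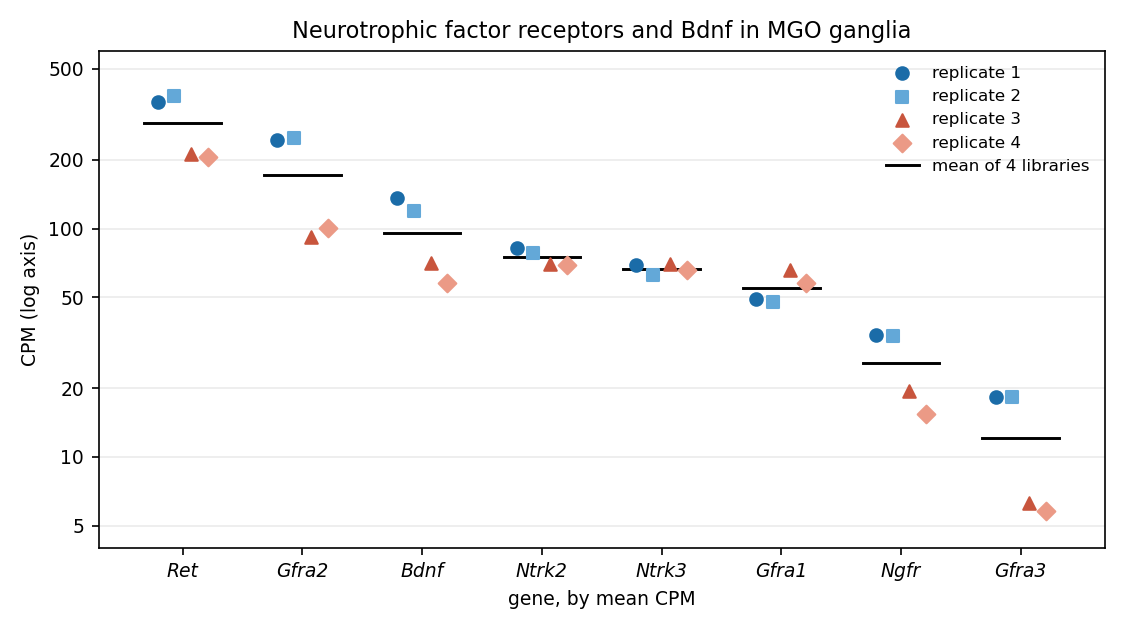
CPM of the 8 genes in each of the 4 MGO libraries (log axis), with the mean as a bar. Ret is highest and Gfra3 lowest in every library, and replicates 1 and 2 lie above replicates 3 and 4 for 6 of the 8 genes, the exceptions being Ntrk3 and Gfra1.

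The order of the 8 genes was tested on the difference of log2(CPM + 1) between 2 genes within a library. The limma fit ran over each of the 8 genes against every gene whose mean was 1 CPM or more, 118500 tests adjusted together by Benjamini-Hochberg, and called 83.5% of them at an adjusted p under 0.05. Of the 28 pairs among the 8 genes 22 (78.6%) were called, a share near that background. Singly, Ret was called higher than 93.5% of the other genes, Gfra2 than 85.9%, Bdnf than 78.3%, Ntrk2 than 76.3%, Ntrk3 than 74.0%, Gfra1 than 69.3%, Ngfr than 50.8% and Gfra3 than 29.7%. The 6 pairs without a call were those within 1 block of 4 genes, Bdnf, Ntrk2, Ntrk3 and Gfra1. By the calls of this fit the order was Ret, Gfra2, the block, Ngfr and Gfra3. With each library pair as 1 value, Ret over Gfra2, Gfra2 over Bdnf, Gfra1 over Ngfr and Ngfr over Gfra3 were not called. With the library pair as a term in the fit, 94.6% of all tests were called. Called too were 5 of those 6 pairs, all but Ntrk2 against Ntrk3 (adjusted p = 0.122 by limma). That fit leaves the spread between the library pairs out of its error. Bdnf over Ntrk2, called there (limma adjusted p = 0.0342), was 0.66 log2 units in replicates 1 and 2 alone. In replicates 3 and 4 alone it was -0.12. The missing calls in the main fit do not show that the 4 genes are alike.

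Ret was 1.79 times Gfra2 and higher in 4 of 4 libraries, a step of 0.84 log2 units with an SE of 0.21 and, by limma, an adjusted p of 0.0102. From Gfra2 to Bdnf, the first of the block, the step was 0.76 log2 units (SE 0.20, adjusted p = 0.0136 by limma), or 1.70 times, with Gfra2 higher in 4 of 4 libraries. Within the block, Ntrk2 and Ntrk3 were closest, 0.17 log2 units apart (SE 0.18, adjusted p = 0.428 by limma). Bdnf over Gfra1 was the widest step in the block at 0.71 log2 units (SE 0.33, adjusted p = 0.0866 by limma). Gfra1, last of the block, stood 1.14 log2 units above Ngfr in the mean (SE 0.32, adjusted p = 0.0166 by limma) and was higher in 4 of 4 libraries. Ngfr in turn was 2.17 times Gfra3, again higher in 4 of 4 libraries, a step of 1.12 log2 units (SE 0.21, adjusted p = 0.00300 by limma).

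With 3 libraries in place of 4 some calls were lost while the steps kept their direction in every library left. Without replicate 1, Gfra2 stood above Bdnf, Ntrk2 and Ntrk3 by 0.74, 0.86 and 1.00 log2 units, against 0.76, 1.03 and 1.20 with all libraries, but was not called (limma adjusted p = 0.0630, 0.0725 and 0.0627). Without replicate 2 the steps were 0.66, 0.82 and 0.93 (limma adjusted p = 0.0730, 0.0695 and 0.0585). Gfra1 over Ngfr was 0.95 without replicate 3 and 0.91 without replicate 4 (limma adjusted p = 0.0646 and 0.0610). With each library pair as 1 value 16 pairs were called, all among the 22, where 72.2% of all tests were called. Ret over Gfra2 (limma adjusted p = 0.224), Gfra2 over Bdnf (0.272), Gfra1 over Ngfr (0.0948) and Ngfr over Gfra3 (0.102) were not called. In that fit every pair of members had the same SE of 0.63 log2 units. Its calls thus rest on the size of the difference, and a pair's own spread played no part. Within replicates 1 and 2 alone 27 pairs were called, beside 93.9% of all tests. Within replicates 3 and 4 alone 22 were, beside 90.3% of all tests, and there Bdnf lay below Ntrk2 and Ntrk3 (log2 differences of Bdnf over each -0.12 and -0.077).

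**Figure D2:**
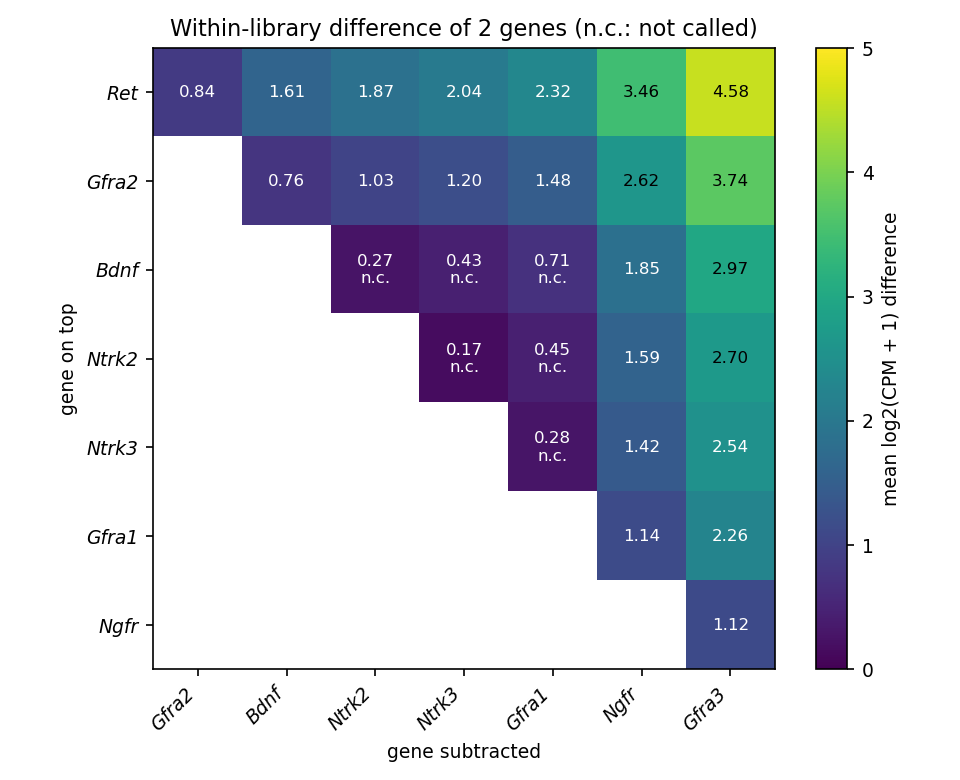
Mean within-library difference of log2(CPM + 1) for each of the 28 gene pairs, the row's gene minus the column's gene, over 4 libraries. The pairs marked n.c. were not called by limma at an adjusted p under 0.05, and all 6 of them lie among Bdnf, Ntrk2, Ntrk3 and Gfra1.

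Dividing by gene length changed this order. Per the labels' protocols the library kit reads the 3′ ends of transcripts, where reads do not grow with length, and CPM holds no length scaling. The values per kb are thus no correction of the CPM order. Exonic length ran from 1997 bases for Gfra3 to 19292 for Ntrk2 and 30170 for Ntrk3. Divided by it, Gfra2 had 48.5 ± 24.6 CPM per kb and Ret 42.6 ± 13.8 CPM per kb (SD, n = 4), which were not told apart (log2 difference of Ret over Gfra2 -0.088, limma adjusted p = 0.671). Bdnf followed with 15.4, Gfra1 with 10.1, Ngfr with 7.44 and Gfra3 with 6.09 CPM per kb, and Ntrk2 and Ntrk3 came last with 3.89 and 2.21 CPM per kb. On this scale 22 pairs were called, beside 80.1% of all tests, and 17 of them were called on the CPM scale too. Among these 17, Ntrk2 over Ngfr (log2 difference -0.73), Ntrk3 over Ngfr (-1.33) and Ntrk3 over Gfra3 (-0.99) were called in the opposite direction. Altogether 7 pairs turned, 6 of them a Trk gene against Gfra1, Ngfr or Gfra3. Per kb of the longest coding transcript, Ret led with 52.9 CPM per kb and Ntrk3 was again last with 3.39 CPM per kb, but Ntrk2, with 8.58 CPM per kb, stood above Ngfr (7.44) and Gfra3 (6.09).

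The 8 genes together made up 0.0791% of CPM, with sums of 990.0, 989.8, 605 and 577 CPM in replicates 1 to 4. Ret held 36.1%, 38.4%, 34.9% and 35.5% of this sum, a nearly constant share (36.2% ± 1.55, SD, n = 4). Gfra2 held 24.6% and 25.3% of it in replicates 1 and 2 and 15.2% and 17.4% in replicates 3 and 4. Gfra1 moved the other way, with 4.96% and 4.82% in replicates 1 and 2 and 10.9% and 10% in replicates 3 and 4. Ntrk3 held 7.01% and 6.29% in replicates 1 and 2 and 11.5% and 11.4% in replicates 3 and 4.

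**Figure D3:**
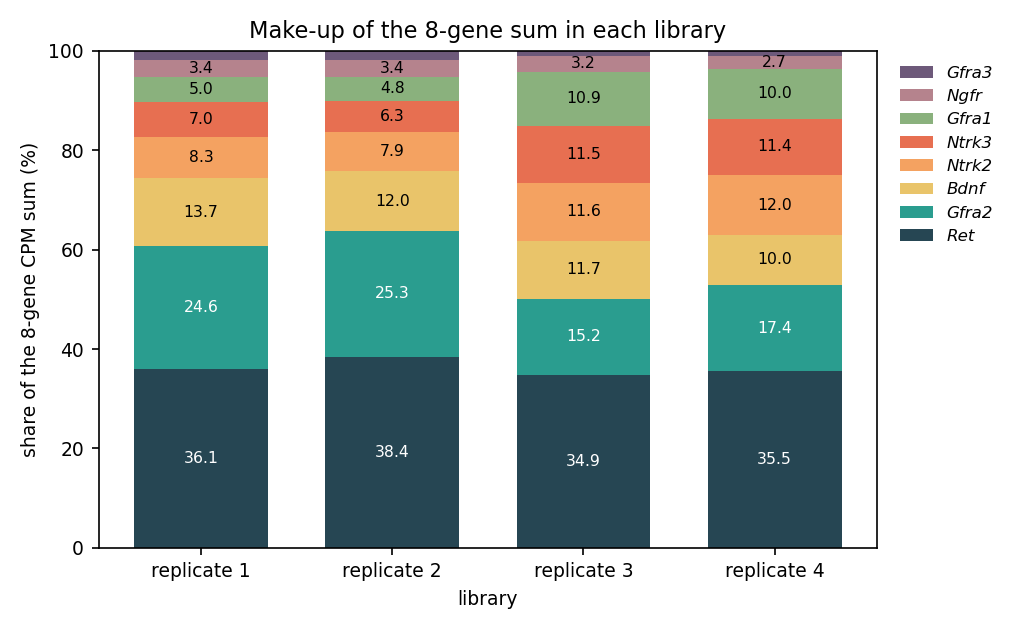
Share of each gene in the CPM sum of the 8 genes, as stacked bars for the 4 libraries. The Ret share stays between 34.9% and 38.4%, while Gfra2 is larger in replicates 1 and 2 and Gfra1, Ntrk2 and Ntrk3 are larger in replicates 3 and 4.

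The pairs of libraries are no group of the study, and their differences are given as a description with no test. Gfra3 was 1.45 higher on the log2(CPM + 1) scale in replicates 1 and 2 than in replicates 3 and 4, and Gfra2 1.35 higher. These 2 of 8 genes passed 2-fold without overlap, as did 30.2% of the 14817 genes whose mean was 1 CPM or more (20.5% higher in replicates 1 and 2, 9.63% higher in replicates 3 and 4) and 19.7% of all genes with a mean above 0. At 1.5-fold 5 of the 8 genes passed, as did 53.1% of the 14817. Bdnf (0.98), Ngfr (0.94) and Ret (0.82) lay just inside 2-fold, Ntrk2 (0.20) and Ntrk3 (-0.038) hardly differed, and Gfra1 (-0.34) was lower in replicates 1 and 2. In 7 of 8 genes the pairs did not overlap at any fold, as in 78.5% of all genes tested. The median gene was 0.16 higher in replicates 1 and 2, and 0.041 higher after rescaling without ribosomal RNA entries, where Ntrk2 was at 0.057 and Ntrk3 at -0.18.

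Gene length moved with this difference. Of 5 length classes of about equal size, the shortest, which holds Gfra3, had a median log2 difference of 0.52, the next, with Gfra2 and Ngfr, 0.41, and the longest, with Ntrk2 and Ntrk3, -0.25. Ret, Bdnf and Gfra1 lie in class 4, where the median was 0.064, with quartiles of -0.47 and 0.60. Ret and Bdnf lay above that upper quartile, and Gfra1 lay within the quartiles. Sums of neuron class markers, each led by 1 or a few genes, differed as well. At 2-fold without overlap, 4 of 7 peptidergic, 3 of 9 large myelinated and 2 of 5 C-fibre markers were higher in replicates 1 and 2. So were 2 of 7 non-peptidergic markers, with 1 lower. Of all genes averaging 1 CPM or more, 20.5% were higher in replicates 1 and 2 by this rule and 9.63% lower. Markers of peptidergic nociceptors (7 of 7 at 1 CPM or more, led by Calca), which are known to carry Gfra3, summed to 1343 and 1201 CPM in replicates 1 and 2 and 515 and 451 CPM in replicates 3 and 4. Markers of non-peptidergic nociceptors (6 of 7, led by Scn11a), known for Ret and Gfra2, summed to 530.1 and 519 CPM in replicates 1 and 2 and 381 and 398 CPM in replicates 3 and 4, although the median marker of that list was lower in replicates 1 and 2 (log2 difference -0.29). Those of large myelinated neurons (8 of 9, led by Nefh), known for Ntrk3 and Ntrk2, summed to 2803 and 2581 against 1260.2 and 1287 CPM, and those of C-fibre low-threshold mechanoreceptors (4 of 5, led by Piezo2) to 673 and 599.8 against 904 and 835 CPM, a sum that is mostly Piezo2, while the median marker went the other way (0.23). Myelinating Schwann cell markers summed to 29062 and 27995 against 15686 and 15314 CPM. The part of length, cell make-up or library quality in these differences was not tested, and in bulk tissue fewer cells of a type and less RNA per cell cannot be told apart.

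**Figure D4:**
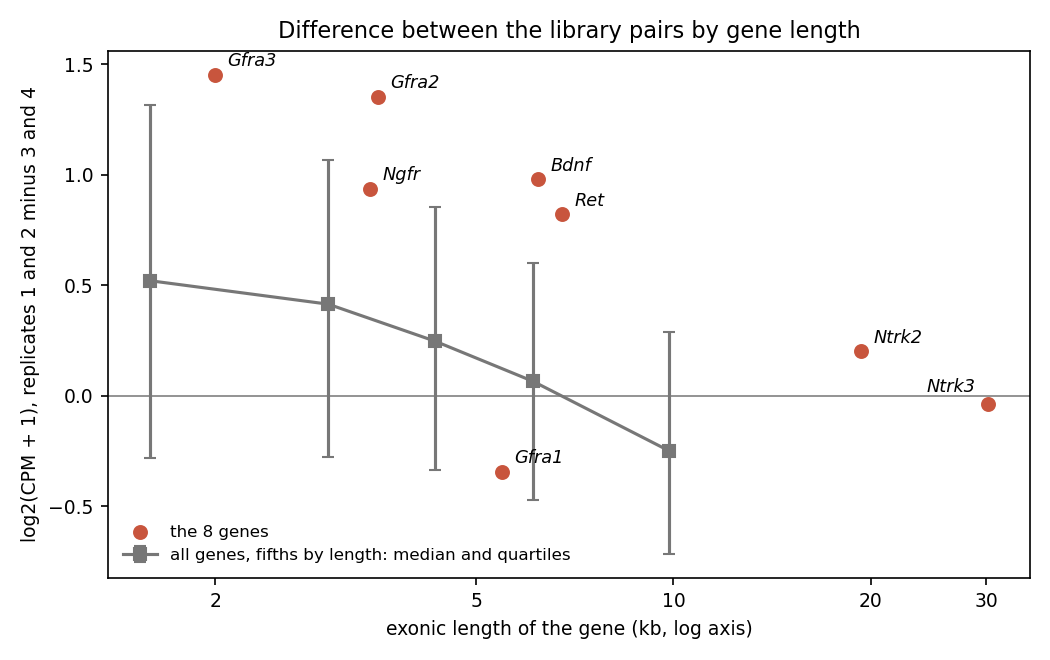
Difference of mean log2(CPM + 1) between replicates 1 and 2 and replicates 3 and 4 against exonic length (kb, log axis) for the 8 genes (points) and for all genes averaging 1 CPM or more in 5 classes of length (squares at the median, bars to the quartiles). The medians run from 0.52 in the shortest to -0.25 in the longest class, and Gfra3, Gfra2, Bdnf and Ret lie above the upper quartile of their class.

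Up to 2 genes closest to each of the 8 in level, by Euclidean distance of log2(CPM + 1) over the 4 libraries, are named here. For Ret they were Epb41l2 (distance 0.11) and Aamp (0.14), for Gfra2 Plekha4 (0.079) and Acsl3 (0.11), and for Bdnf Rnf11 (0.11). Ntrk2 lay closest to Sf1 (0.061) and Mir22hg (0.11), Ntrk3 to Hadha (0.069) and Srp9 (0.096), and Gfra1 to Kpna3 (0.091) and Glt8d1 (0.11). For Ngfr they were Jak2 (0.079) and Ctsa (0.10), and for Gfra3 Ndufv1 (0.19) and Tex264 (0.23). None of these is another of the 8 genes, and the measure takes in both the level and the difference between the library pairs.

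The receptors act through partners at the membrane, adaptors in the cytoplasm and an endosome that carries the signal to the cell body. Outside the 8 genes, 71 of 91 genes of these pathways (78.0%) reached 1 CPM in all 4 libraries, against 54.4% of the protein-coding genes in the table. Receptor partners were detected in 13 of 13 cases. They were led by Ncam1, an adhesion molecule that can also bind GDNF (353 ± 87.4 CPM, SD, n = 4), by Kidins220, a scaffold of Trk signalling (253 ± 61.1 CPM), and by Lingo1, a partner of p75 and the Nogo receptor (107 ± 49.3 CPM), with the syndecan gene Sdc3 lowest (2.78 ± 1.11 CPM). Sort1, whose product sortilin binds proneurotrophins together with p75, had 62.2 ± 6.65 CPM, beside 25.7 ± 9.71 CPM for Ngfr.

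Of 8 genes of proneurotrophin processing 6 were detected, led by Serpini1, a neuronal serpin that inhibits tissue plasminogen activator (53.5 ± 15.7 CPM), by Plat, the gene of that activator (38.6 ± 16.7 CPM), and by Furin, which cleaves proneurotrophins inside the cell (23.1 ± 4.98 CPM). The protease gene Mmp7 was listed at 0 in every library. The adaptors of p75 were detected in 10 of 11 cases, led, by mean, by Maged1 (304 ± 209 CPM), the RhoGDI gene Arhgdia (133 ± 18.4 CPM) and Bex3 (118 ± 86.5 CPM), with Prdm4 lowest at 2.75 ± 0.912 CPM. In replicates 3 and 4 Arhgdia (141 and 153 CPM) lay above Maged1 (133 and 113 CPM). Maged1 and Bex3 were 1.97 and 2.11 higher on the log2(CPM + 1) scale in replicates 1 and 2 than in replicates 3 and 4.

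Adaptors of the kinases Ret and Trk were detected in 17 of 24 cases. Dok4, a docking protein of Ret, led with 229 ± 76.7 CPM, followed by Grb2, the link to Ras (192 ± 12.6 CPM), and Sos1, a Ras exchange factor (121 ± 24.0 CPM). Grb7 was lowest, with 2 reads in all. Of the Shc adaptors, which bind the phosphorylated receptors directly, Shc2 had 69.8 ± 11.3 CPM and Shc1 28.4 ± 5.15 CPM, whereas Shc3 had 5 reads. Feedback and ubiquitin regulators were detected in 11 of 12 cases and led, by mean, by the receptor phosphatase gene Ptprf (613 ± 519 CPM), the ubiquitin ligase gene Nedd4 (247 ± 72.2 CPM) and Ptprs (190.4 ± 76.8 CPM), with Spry1 lowest (1.23 ± 0.667 CPM). In replicates 3 and 4 Ptprf had 162 and 177 CPM, below Cd2ap (196 and 200.4 CPM) and Nedd4 (189 and 182 CPM). Dusp6, a phosphatase that dampens ERK, had 161 ± 27.2 CPM. All 14 genes of the retrograde endosome and its effectors were detected, from Gipc1 at 5.08 ± 3.34 CPM to Rab11a at 441 ± 263 CPM, with the cofilin gene Cfl1 at 303 ± 84.4 CPM and the dynein chain gene Dync1i1 at 236 ± 180 CPM next by mean. In replicates 3 and 4 Cfl1 (225 and 236 CPM) lay above Rab11a (219 and 210.3 CPM), and Dync1i1 (87.7 and 73.8 CPM) below Creb1 (100.4 and 99.7 CPM). Genes named in these lists beyond the leading 3 and the lowest were chosen after their values were seen.

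**Figure D5:**
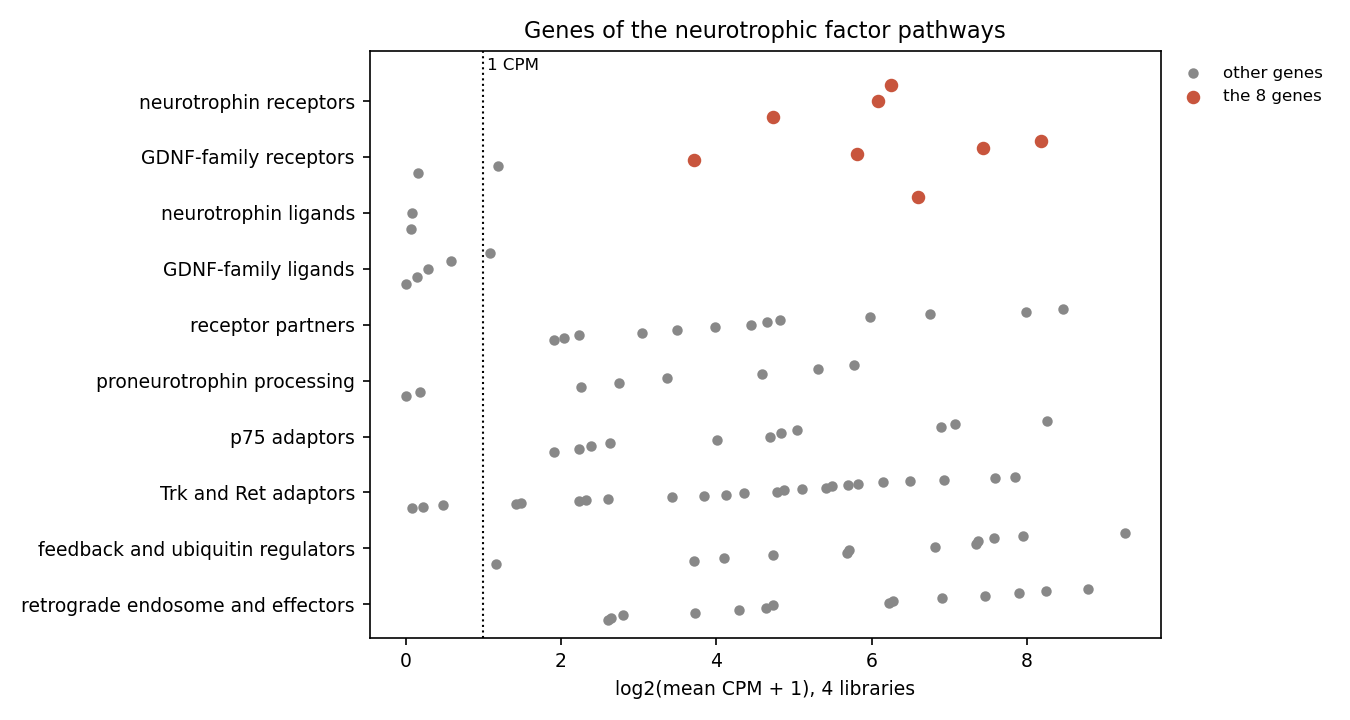
Mean level of the 99 pathway genes over 4 libraries, as log2(mean CPM + 1), 1 row per list, with the 8 genes in red and the dotted line at 1 CPM. All ligand genes except Bdnf lie at or near the line or below it, while most receptors, partners and adaptors lie above it.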

How the data were processed

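The authors deposited 1 value per gene and library. Per the file headers these are TPM, but they behave as CPM: within 0.05, at least 98.3% of the values above 0 were whole multiples of 1 step per library shared by all genes, so no length scaling was present. Per the submitters' processing notes the tools included Cufflinks 2.2.1, TopHat2 2.1.1 and Bowtie2 2.2.9 for builds GRCm38.p4 and mm10, in roles not given there. Per the labels' protocols, QuantSeq 3′ libraries were made from TRIzol-extracted RNA after ribosomal RNA depletion. If a step is 1 read, all 32 member values are whole reads (35 to 3619). Because other genes had some values between steps, count models were left out, and the tests planned for TPM were run on CPM.

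Lengths and positions came from GENCODE M21 (GRCm38), where 99.2% of identifiers had an entry. Gene pairs were tested in R 4.3.3 with the moderated two-sided test of limma 3.58.1, fitting only a mean to log2(CPM + 1) differences. The fit was also run on simulated libraries. These held no library pairs, so they cannot show how the test behaves on libraries split as here. Sums were compared by exact sign-flip tests. Python 3.11.15, numpy 2.4.6, pandas 2.3.3 and scipy 1.17.1 were used. Alternatives were each replicate left out, other scaling totals, pseudocounts, filters, variances, length scaling and library pairs. The members, the 10 pathway and 14 marker lists and the rule for named genes (members, ligand and receptor genes, the 3 highest and the lowest of each list, and the 2 nearest genes in level) were chosen with earlier results of these data known. Some genes are not reported here.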

Additional observations from a re-analysis of the deposited data

How the results depend on the processing

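The count of called pairs among the 8 genes was 19 to 21 with 1 replicate left out, 22 with other scaling totals, a pseudocount of 0.1 or other filters on low values, 18 with ordinary variances, 16 on means of the library pairs and 27 with the library pair as a term, where 76.8%, 72.2% and 94.6% of all tests were called. No pair turned direction under these. Dividing by exonic length turned 7 pairs (log2 difference, first gene over second): Ret and Gfra2 -0.088, Ntrk2 and Gfra1 -1.17, Ntrk2 and Gfra3 -0.39, Ntrk2 and Ngfr -0.73, Ntrk3 and Gfra1 -1.78, Ntrk3 and Gfra3 -0.99, and Ntrk3 and Ngfr -1.33. It turned the co-receptors over Ret to 0.56 in 4 of 4 libraries and Ntrk2 and Ntrk3 over Ngfr to -0.20, lower in 2 of 4. By the longest coding transcript, added after seeing the data, these were 0.32 and 0.77. The turns follow from the lengths divided by. In replicates 3 and 4 alone, a setting chosen after seeing the data, Bdnf over Ntrk2 was -0.12 and Bdnf over Ntrk3 -0.077. At 1.5-fold, 5 of the 8 genes differed between the library pairs without overlap, as did 53.1% of all genes, against 2 and 30.2% at 2-fold. The pathway genes detected were 79 of 99, from 65 at 5 CPM to 84 at 0.5 CPM. With 1 replicate left out, the log2 ratio of the co-receptor sum to Ret was -0.32 to -0.26 and that of Ntrk2 and Ntrk3 to Ngfr was 2.35 to 2.71. No paired analysis was possible because the samples analysed form 1 group, so replicate numbers match nothing across groups. Depth limits the ligand genes near 0, where 1 read is worth 0.0986 to 0.179 CPM.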

Other observations

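Between the library pairs, 22 of the 79 pathway genes outside the 8 that averaged 1 CPM or more (27.8%) had pairs 2-fold or more apart that did not overlap, as did 30.2% of all genes averaging that much. None of the 12 with a lower mean did. Replicates 1 and 2 were the higher pair in 18 of them and the lower pair in 4. Those named here were chosen after their values were seen. The widest was the receptor phosphatase gene Ptprf, with 957 and 1157 CPM in replicates 1 and 2 and 162 and 177 CPM in replicates 3 and 4. Rac1, a small GTPase of growth cone and endosome signalling, had 262 and 268 CPM in replicates 1 and 2 and 92.5 and 77.7 CPM in replicates 3 and 4. The docking protein genes Irs1, Frs2 and Frs3 were among the 4 that were higher in replicates 3 and 4. Irs1 had 0.789 and 1.23 CPM in replicates 1 and 2 and 6.46 and 6.37 CPM in replicates 3 and 4.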
